A study of Mus musculus with 4 samples.

Results

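Keratin genes in a mouse melanoma line were examined by chromatin accessibility. The set was every protein-coding gene whose symbol is Krt followed by a digit, in the RefSeq annotation of GRCm38 (the build of the mm10 coordinates), with the Krtap genes left out. It held 53 of 21887 protein-coding genes, 27 on chromosome 11 and 26 on chromosome 15. Peaks overlapping a gene body extended by 10 kb on each side were taken. They fell into 61 regions of the 103629 regions that the 4 libraries had in all, 21 on chromosome 11 and 40 on chromosome 15. Accessibility was measured by Omni-ATAC-seq, which marks open chromatin by where the Tn5 enzyme can insert adapters, with 50000 cells per reaction. The cells were B16F10, a mouse melanoma line, grown in vitro and carrying either a guide RNA against Arid1a (sgArid1a, 2 libraries) or a scrambled guide (sgScramble, 2 libraries). Arid1a encodes a subunit of the BAF chromatin remodelling complex. Nothing in the labels says whether the replicates came from separate cultures or whether the edited cells were a clone, so the spread between libraries may be technical.

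Keratins are the intermediate filament proteins of epithelia. Acidic type I and basic type II keratins pair to form each filament, and in the mouse the type I genes lie together on chromosome 11 and the type II genes on chromosome 15, where the type I gene Krt18 also lies beside its partner Krt8. Each epithelium uses its own pairs: Krt8 and Krt18 in simple epithelia, Krt5 and Krt14 in the basal layer of the epidermis, Krt1 and Krt10 above it, and a large set in the hair. Melanocytes come from the neural crest and have vimentin filaments.

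Because the regions were picked by the presence of peaks, their presence is a description and carries no test. The lists held 65353 and 71255 peaks in sgArid1a replicates 1 and 2, and 82319 and 85613 in sgScramble replicates 1 and 2. They hold no read counts, so the depth is unknown. In bulk libraries, fewer cells with an open region and less opening per cell cannot be told apart. Of 7 melanocyte markers, 4 had a promoter in the RefSeq table used here: Mitf, Tyr, Tyrp1 and Dct. All 4 promoters lay in a peak of every list, as did those of 54.8% of protein-coding genes in that table. With a share that high, these 4 do not by themselves show cell identity. The promoters of Krt5, Krt14, Krt8, Krt18 and the epithelial adhesion gene Epcam lay in none, and nor did those of the immune genes Ptprc and Cd3e and the fibroblast gene Pdgfra. That of the myeloid lysozyme gene Lyz2 lay in a peak of every list. Promoters of epithelial factors were not all without a peak: of the 8 genes with a listed promoter among 18 epithelial factor and adhesion genes, 5 (Elf3, Grhl1, Grhl3, Ovol2 and Klf4) had it in a peak of every list. Disruption of Arid1a itself cannot be read from peak lists.

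No keratin promoter in the RefSeq promoter table lay in a peak of any library. The RefSeq promoter table, which spans 250 bases before to 50 after a transcription start, held 37 starts for 36 of the 53 keratin genes, and 0 of the 36 genes had a promoter overlapped by a peak in any of the 4 lists. Over all protein-coding genes in that table, 54.8% (9581 of 17492) had a promoter overlapped in all 4 lists and 58.0% in at least 1. The keratin promoters also differed from the others in letters. The TATA box letters TATAAA, searched on both strands like every motif here, stood in 19 of the 37 keratin promoters (51.4%) and in 12.6% of the 21263 promoters of protein-coding genes. The GC box letters GGGCGG stood in 2 of 37 (5.41%) and in 46.2% of all. The median GC content was 48.7% in keratin promoters and 56.3% in all. The promoters of 4 genes are shown as examples of these contrasts, each with the 250 bases before the start in GRCm38, credited to RefSeq, and with the motif letters in capitals. Krt7, a simple-epithelial type II keratin, is at chr15:101412153-101412402 (plus strand) and holds 4 GC boxes. Krt18 is at chr15:102027966-102028215 (plus strand) and holds none of the motifs. Krt28, an inner root sheath keratin of the hair follicle, is at chr11:99374904-99375153 (minus strand), and Krt40, a hair keratin, is at chr11:99543221-99543470 (minus strand); both hold a TATA box near the start.
Krt7: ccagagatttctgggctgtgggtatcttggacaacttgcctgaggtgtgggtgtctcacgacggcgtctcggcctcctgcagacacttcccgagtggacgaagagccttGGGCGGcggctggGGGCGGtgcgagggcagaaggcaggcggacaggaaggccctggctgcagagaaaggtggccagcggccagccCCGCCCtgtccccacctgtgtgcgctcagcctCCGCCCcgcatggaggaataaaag
Krt18: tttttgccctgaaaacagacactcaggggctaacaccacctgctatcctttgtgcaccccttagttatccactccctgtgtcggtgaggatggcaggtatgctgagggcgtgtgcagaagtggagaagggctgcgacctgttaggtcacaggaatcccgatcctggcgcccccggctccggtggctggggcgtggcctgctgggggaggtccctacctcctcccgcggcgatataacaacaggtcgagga
Krt28: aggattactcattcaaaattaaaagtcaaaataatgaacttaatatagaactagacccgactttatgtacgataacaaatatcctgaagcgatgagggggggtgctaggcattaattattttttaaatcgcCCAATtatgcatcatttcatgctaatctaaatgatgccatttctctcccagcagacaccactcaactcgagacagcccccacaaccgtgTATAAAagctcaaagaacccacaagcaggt
Krt40: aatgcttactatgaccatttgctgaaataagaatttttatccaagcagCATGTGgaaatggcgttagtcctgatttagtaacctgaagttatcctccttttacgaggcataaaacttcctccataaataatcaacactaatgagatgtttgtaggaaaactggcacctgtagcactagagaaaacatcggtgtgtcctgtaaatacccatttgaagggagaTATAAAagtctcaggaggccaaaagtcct

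In the Krt28 sequence the capitals mark CCAAT and TATAAA, in Krt40 CATGTG and TATAAA, and in Krt7 GGGCGG or its reverse complement. The first base of TATAAA lay 30 bases before the start of Krt28 and 29 bases before that of Krt40. In 12 of the 37 keratin promoters (32.4%) TATAAA began 26 to 31 bases before the start on the strand of the gene, against 1.88% of all promoters. These limits equal the positions at Krt10 (26 bases) and Krt34 (31 bases). An interval matched to keratin positions favours the keratin share, so this contrast is a description only. Among the remaining motifs, CCAAT stood in 15 of 37 (40.5%, against 38.2% of all), the AP-1 letters TGANTCA in 2 (5.41%, against 6.99%), the TEAD letters GGAATG in 3 (8.11%, against 13.6%), and the E-boxes CACGTG in 3 (8.11%, against 7.84%) and CATGTG in 2 (5.41%, against 11.5%). CACGTG reads the same on both strands, and no motif in the search contains another. These are matches of letters and not sites.

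For the 17 keratin genes without a listed start, either end of the gene was examined, since the gene table gives no strand. An end of these genes that lies in a peak may therefore be the promoter end or the far end. Over all 53 genes, 2 (3.77%) had an end lying in a peak of all 4 lists, against 48.1% of protein-coding genes (10522 of 21887). The 2 were Krt80 and Krt81, a hair keratin. At Krt80, a type II keratin of differentiating epithelia, a region at chr15:101369865-101371026 covered the end at 101370162 over 1027 and 937 bp in sgArid1a replicates 1 and 2 and over 1014 and 1088 bp in sgScramble replicates 1 and 2. The same bases lie within the long non-coding gene Gm35853. The authors' fold there, a ratio of signal over background, was 4.55 and 4.23 in the sgArid1a lists, against 5.10 and 5.18 in the sgScramble lists. These folds stood at percentiles 66.5 and 62.5 of the sgArid1a lists, against 75.7 and 78.0 of the sgScramble lists, so the groups overlapped in width but not in percentile. Percentiles by fold are taken within each list, because folds of lists with different depth and background are not on one scale. A list that lacks weak peaks ranks an unchanged region lower, so list length also moves these percentiles, and its part in the differences was not tested. At Krt81 the region at chr15:101458336-101459578 covered 986 and 1070 bp in the sgArid1a libraries, against 1151 and 1243 bp in the sgScramble libraries, without overlap.

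At Krt86, a hair keratin, the region was called in every library but its extent differed. Peaks covered 773 and 774 bp in sgArid1a replicates 1 and 2, against 1379 and 1425 bp in sgScramble replicates 1 and 2. The gene end at 101479983 lay inside the peak in both sgScramble lists and outside it in both sgArid1a lists, and the 2 groups did not overlap in covered length. Such a change at a gene end was found at 1.17% of protein-coding genes (257 of 21887) and at 1 of the 53 keratin genes. Both counts are over all genes, although only a gene with an end in a peak of both sgScramble lists could show it. At Krt88 the end at 101453925 lay in a peak of sgArid1a replicate 2 alone. The region there covered 704 and 690 bp in the sgArid1a libraries, against 599 and 662 bp in the sgScramble libraries.

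**Figure D1:**
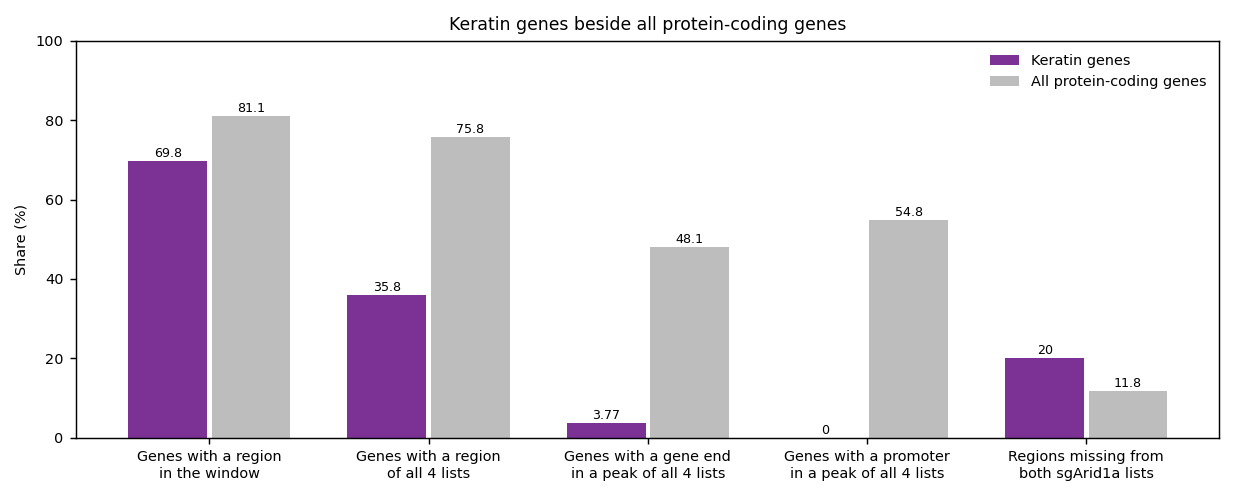
Shares of keratin genes or regions (purple) beside the same shares over all protein-coding genes (grey), in percent. Keratin genes with an end in a peak of all 4 lists made up 3.77% against 48.1%, and those with a promoter in such a peak 0% of 36 against 54.8% of 17492.

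Open regions lay near keratin genes nonetheless. Of the 53 genes, 37 (69.8%) had a region within 10 kb, against 81.1% of protein-coding genes (17747 of 21887), and 19 (35.8%) had one called in all 4 lists, against 75.8%. The windows held 5.70 regions per 100 kb, close to the 5.86 of all protein-coding gene windows, and 2.52 regions of all 4 lists per 100 kb, against 3.11. Keratin genes are short, with a median length of 7070 bp against 17169 bp, so a window of fixed padding holds less sequence. Of the 61 regions, 27 (44.3%) were called in all 4 lists, against 53.0% of the regions in windows of protein-coding genes, and 15 were called in 1 list alone, as were 22.3% of all regions. Of the 61, 16 lay within 1 kb of a keratin gene end, 17 elsewhere in a keratin gene body and 28 outside keratin genes. The outermost region inside the limit lay 9937 bp from Krt24 and the nearest outside it 10811 bp from Krt80.

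The 2 clusters differed in how much of them was open. On chromosome 15, 21 of 26 genes had a region and 21 of 40 regions (52.5%) were called in all 4 lists. On chromosome 11, 16 of 27 genes had a region and 6 of 21 regions (28.6%) were called in all 4. Of all protein-coding genes 81.1% had a region, and 53.0% of the regions in their windows were called in all 4 lists. Chromosome 15 was thus near these shares and chromosome 11 below them. Regions on chromosome 15 were spread unevenly. The window of Krt80 held 8 over 41.8 kb, 3 of them in all 4 lists. The stretch from Krt7 to Krt83 held 13 regions over 99.1 kb, 7 of them in all 4 lists, and the stretch from Krt4 to Krt8 held 9 over 105.8 kb, 6 of them in all 4. Between these stretches lay, among others, 4 regions from Krt84 to Krt75, 2 of them in all 4 lists, and 1 in all 4 lists beside Krt72. Also between them, 139.3 kb that hold most of Krt75 and all of Krt6b and Krt6a had no called region, and 128.9 kb that hold Krt72, Krt73, Krt2, Krt1, Krt77 and Krt76 had none either. The median distance between neighbouring regions over the genome was 8.61 kb. On chromosome 11 the run of Krt16, Krt17 and Krt42 had no region in its 43.9 kb, and neither did Krt13, Krt15 and Krt19, which are keratins of mucosa, of basal and hair-bulge cells and of simple epithelia. The other genes without a region were Krt27, Krt20, Krt39, Krt33b and Krt32 on chromosome 11.

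**Figure D2:**
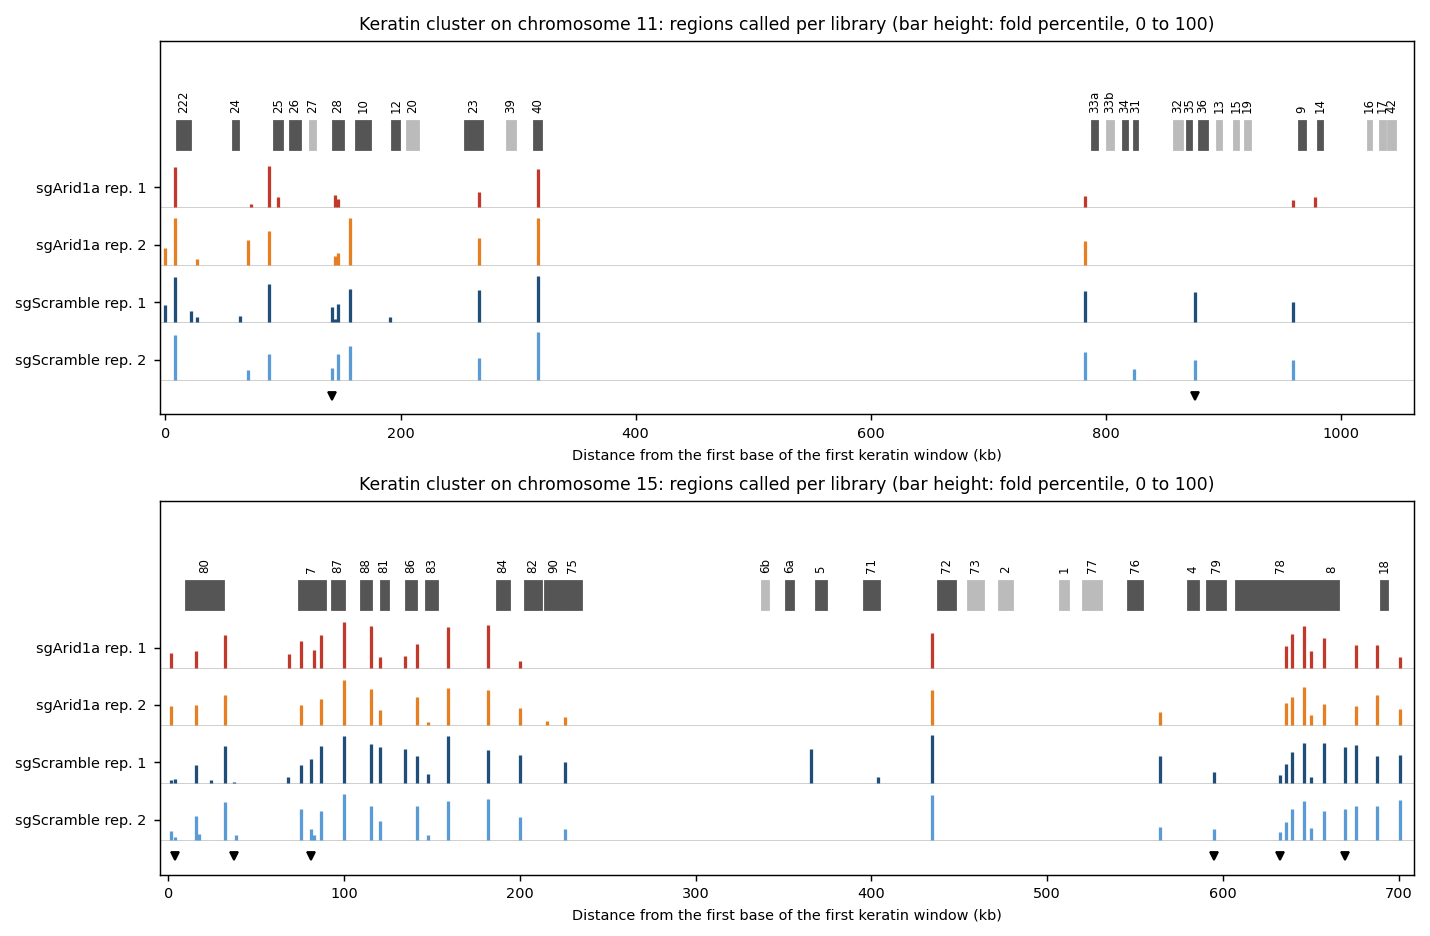
Keratin genes (boxes, labelled by the number in their symbol; dark with a region within 10 kb, light without) and the regions called in each library, by distance in kb along each cluster. Bar height is the fold percentile of the region in that library, and triangles mark the 2 regions on chromosome 11 and the 6 on chromosome 15 that were called in each sgScramble library but in no sgArid1a library.

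Grouped by the epithelium they are known from, simple-epithelial keratins, with Krt80 placed among them, had 22 regions in the windows of 5 of 7 genes, and 12 of those regions were called in all 4 lists. Of the 22, 8 were at Krt80, and those within 10 kb of Krt8 include 2 that lie inside Krt78 and count there too. Krt8 had 4 regions and Krt18 had 2, with none over either gene body. The region nearest to the start of Krt18, 1649 bp upstream at chr15:102025243-102026567, covered 1270 and 1309 bp in sgArid1a replicates 1 and 2 and 1290 and 1296 bp in sgScramble replicates 1 and 2, and the groups overlapped. The second, 6538 bp beyond the far end of the gene, covered 258 and 345 bp in the sgArid1a libraries, against 498 and 491 bp in the sgScramble libraries. Its fold stood at percentiles 21.4 and 33.2 of the sgArid1a lists, against 56.5 and 82.5 of the sgScramble lists, so both sgArid1a values lay below both sgScramble values in width and in percentile. Krt7 had 7 regions, 4 of them in its body, with 3 called in all 4 lists. One of these began 991 bp downstream of the listed start (chr15:101413394-101414530) and covered 1075 and 915 bp in the sgArid1a libraries and 1100 and 935 bp in the sgScramble libraries, values that overlapped. Krt80 had 8 regions and Krt23, which is found in simple epithelia, had 1, which was inside the gene and in all 4 lists. Krt20 and Krt19 had none.

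Basal-layer keratins were almost without called regions. The 2 regions within 10 kb of Krt5 and Krt14 were each called in 1 library, sgScramble replicate 1 at Krt5 (264 bp) and sgArid1a replicate 1 at Krt14 (310 bp), and Krt15 had none. Suprabasal and mucosal keratins had 15 regions at 8 of 12 genes, and 5 of them were called in all 4 lists, all of these inside Krt78. The RefSeq model of Krt78 runs over 50624 bp up to the neighbouring Krt8, while the promoter listed for it lies at chr15:101954288-101954537, near the end away from Krt8. The 6 regions of Krt78 (101970656 to 101996073) all lay upstream of that promoter, between it and Krt8. The widest, at chr15:101983539-101984969, covered 953 and 1228 bp in sgArid1a replicates 1 and 2, against 1424 and 1429 bp in sgScramble replicates 1 and 2, without overlap. Its fold percentiles overlapped, at 85.4 and 77.5 in the sgArid1a lists, against 80.1 and 79.2 in the sgScramble lists. Krt9 had 2 regions and Krt24 had 3, none of them in all 4 lists, and Krt10, Krt12, Krt76, Krt4 and Krt79 had 1 each.

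Hair and nail keratins had 15 regions at 12 of 15 genes, and 10 were called in all 4 lists. Their strongest by sgScramble percentile was inside Krt40 at chr11:99539589-99540440, with folds of 5.17 and 6.40 in sgArid1a replicates 1 and 2 and of 6.45 and 7.10 in sgScramble replicates 1 and 2, at percentiles 77.9 and 95.1 of the sgArid1a lists, against 94.3 and 98.1 of the sgScramble lists. The percentiles of the groups overlapped, and the covered lengths did too, at 478 and 721 bp in the sgArid1a libraries and 852 and 659 bp in the sgScramble libraries. A region inside Krt87, at chr15:101437506-101438719, came next: it covered 875 and 1110 bp in the sgArid1a libraries and 1102 and 1050 bp in the sgScramble libraries, at percentiles 93.3 and 92.8 of the sgArid1a lists, against 95.3 and 93.4 of the sgScramble lists. The lengths overlapped and the percentiles did not, and the region ended 85 bp short of the gene end. Krt81, Krt86 and Krt83 had 3 regions each, Krt87, Krt84 and Krt82 had 2 each, and Krt33a, Krt34, Krt31, Krt35 and Krt36 had 1 each, which Krt34 shares with Krt31 and Krt35 with Krt36.

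Inner root sheath keratins had 8 regions at 5 of 7 genes. Beside Krt72 a region at chr15:101772039-101773294 was called in every library, with folds of 4.82 and 4.63 in sgArid1a replicates 1 and 2 and 6.79 and 6.19 in sgScramble replicates 1 and 2. Both sgArid1a percentiles, 71.7 and 71.1, lay below both sgScramble percentiles, 96.7 and 92.3, while the covered length was 908 and 1246 bp in the sgArid1a libraries against 971 and 957 bp in the sgScramble libraries. Krt28 had 4 regions and Krt25 had 2, and Krt26 and Krt71 had 1 each, called in 1 library. Of the injury and appendage keratins, Krt75 had 2 regions and Krt6a had 1, and none was in all 4 lists. Krt222, Krt88 and Krt90, outside these groups, had 4, 3 and 2. The 1 shared region of Krt222 (chr11:99229687-99231507) lies over the end of Smarce1, a BAF subunit gene, 1254 bp outside Krt222.

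Compared between the groups, some keratin regions were missing from both sgArid1a lists, and none was called in both of these while absent from the sgScramble lists. Single lists differed too: 4 regions were called in sgArid1a replicate 1 alone and 1 in sgArid1a replicate 2 alone, against 7 in sgScramble replicate 1 alone and 3 in sgScramble replicate 2 alone. The sgScramble lists are longer, and the part of list length in these counts was not tested. Shares per library over all regions were not taken. Of the 40 regions called in each sgScramble library, 8 (20%) were called in no sgArid1a library, and these are called missing here. The exact 95% Clopper-Pearson interval, 9.05% to 35.6%, covers counting error over regions only, and it includes the 12.9% found over all regions (9388 of 73056) and the 11.8% over regions in windows of protein-coding genes. The share was 20% in each cluster, at 2 of 10 regions on chromosome 11 and 6 of 30 on chromosome 15. Without sgScramble replicate 2 the count was 15 of 51 (29.4%, against 18.9% of all regions under the same rule). With all lists trimmed to equal length by −log10 p it was 5 of 34 (14.7%, against 6.97%). In the reverse direction, 0 of the 28 regions called in each sgArid1a library were absent from both sgScramble lists. A count of 0 in 28 allows up to 10.7% (a floor of 3 counts), and the share was 1.39% over all regions and 1.33% over those in windows of protein-coding genes. Without sgArid1a replicate 2 this count was 4 of 35 (11.4%, against 7.52% of all regions under the same rule). It was 1 of 36 without sgArid1a replicate 1 (2.78%, against 8.01%) and 1 of 28 without sgScramble replicate 1 (3.57%, against 2.85%). At the level of genes, 9 of the 28 whose window held a region called in each sgScramble library (32.1%) had a missing region, against 30.1% of protein-coding genes. The 8 regions were set at Krt8, Krt7, Krt78, Krt28, between Krt35 and Krt36, near Krt4 and Krt79, and 2 at Krt80.

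The region with the highest fold of the 8 lay 3095 bp upstream of the start of Krt8, at chr15:102007437-102007871, within the long non-coding gene Gm36026. It had no peak in sgArid1a replicates 1 and 2, against 267 and 435 bp in sgScramble replicates 1 and 2, where its fold stood at percentiles 72.7 and 64.0. The next region outward, at chr15:102013504-102014495, was called in all 4 lists and stood at percentiles 46.1 and 39.1 of the sgArid1a lists, against 77.0 and 70.4 of the sgScramble lists, without overlap. In the window of Krt8 as a whole, peaks covered 1366 and 1823 bp in the sgArid1a libraries, against 1979 and 2336 bp in the sgScramble libraries. In that of Krt18 they covered 1528 and 1654 bp in the sgArid1a libraries, against 1788 and 1787 bp in the sgScramble libraries. Both sgArid1a libraries were thus below both sgScramble libraries at each gene of the pair, as at 53.9% of protein-coding genes with a region.

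The region between the hair keratins Krt35 and Krt36 (chr11:100098697-100099029) had no peak in either sgArid1a library, against 317 and 333 bp in the sgScramble libraries, at percentiles 61.5 and 41.0. Inside Krt7, the region at chr15:101419044-101419876 had none either, against 529 and 807 bp in the sgScramble libraries, at percentiles 49.0 and 21.7. The other missing regions, again with 0 bp in both sgArid1a libraries, had lower folds in the sgScramble lists than that of Krt8. That beside Krt28 (chr11:99364247-99364875, 132 bp outside the gene) covered 442 and 450 bp in sgScramble replicates 1 and 2, at percentiles 31.9 and 23.5. That inside Krt79 and within 10 kb of Krt4, both keratins of stratified epithelia, at chr15:101932971-101933421, covered 381 and 267 bp at percentiles 21.9 and 22.1. The missing region of Krt78 (chr15:101970656-101971008) covered 352 and 322 bp at percentiles 16.2 and 16.6. Both at Krt80 had low folds. The 1 at chr15:101341900-101342211 covered 293 and 291 bp at percentiles 8.1 and 5.5, and the 1 at chr15:101375029-101375925 covered 885 and 532 bp at 1.1 and 0.73. By −log10 p the order differed: the first of these Krt80 regions stood at percentiles 49.2 and 43.6 and that of Krt78 at 43.1 and 44.2, against 41.3 and 27.8 for the region between Krt35 and Krt36. Over the 8 missing keratin regions the median of the mean sgScramble percentile was 24.9, against 65.2 over the 27 keratin regions in all lists. Over all regions of the genome the same medians were 27.8 and 65.5.

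**Figure D3:**
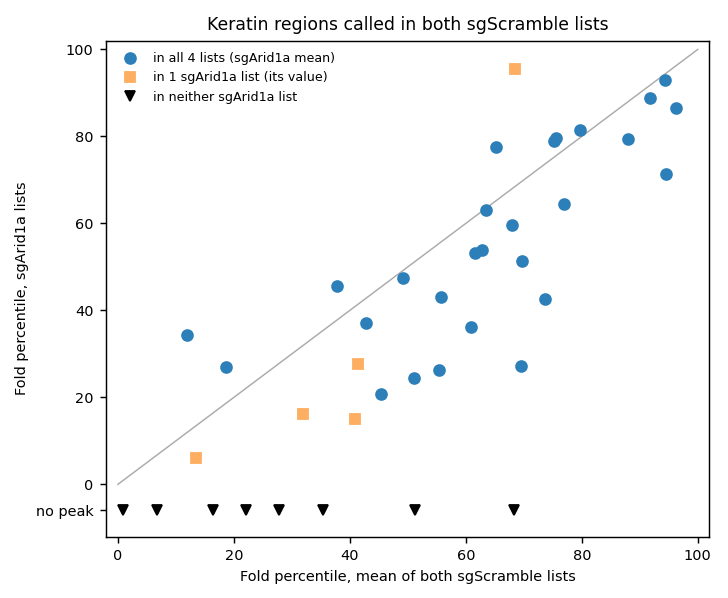
Fold percentile of the 40 keratin regions called in each sgScramble library, as the mean of both sgScramble lists (horizontal axis) and in the sgArid1a lists (vertical axis; the mean where both have a peak, otherwise the 1 value), with the line of equal percentiles. The 8 regions with no sgArid1a peak, drawn as triangles, lie between 0.894 and 68.3 on the horizontal axis, and 2 of them lie above 50.

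Among the 27 keratin regions in all lists, the median percentile difference (sgArid1a minus sgScramble) was -8.42, against -1.66 over the 52885 such regions of the genome. The percentile was lower in both sgArid1a lists than in both sgScramble lists at 9 of 27 (33.3%, against 30.9% of all), and higher in both at 2 (7.41%, against 20.7%). The 9 included the regions beside Krt72, at the ends of Krt80 and Krt81, in Krt87 and Krt28, and the outer regions of Krt8 and Krt18. Those of Krt33a and of Krt84 with Krt82 made up the rest. The 2 were a region 8464 bp from Krt80 and the region of Krt78 at 101973584. In width, 7 of 27 (25.9%) were narrower in both sgArid1a libraries, against 40.6% of all such regions, and 3 (11.1%) were wider in both, against 6.45%. The median width ratio, sgArid1a over sgScramble, was 0.922 at the keratin regions and 0.913 over all.

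In sum, less of the keratin windows was covered in the sgArid1a libraries. The keratin windows held 35 and 36 peaks in sgArid1a replicates 1 and 2, against 50 and 45 in sgScramble replicates 1 and 2. They covered 20395 and 25110 bp in the sgArid1a libraries, against 32891 and 31665 bp in the sgScramble libraries, and the groups did not overlap. The mean was 22752.5 ± 3334 bp in the sgArid1a libraries and 32278 ± 867 bp in the sgScramble ones (SD, n = 2 each). The difference was -9525.5 bp, or -29.5%. The exact two-sided permutation p was 0.333, the smallest that 2 libraries against 2 can give. The covered length of the whole genome differed by -22.3%. With lists trimmed to equal length the keratin difference was -4370.5 bp, and no difference over the whole genome was taken under that trimming. In the full lists, keratin windows held 380 and 401 bp per Mb of covered length in sgArid1a libraries and 445 and 418 in sgScramble libraries. This was a difference of -9.52% (exact two-sided permutation p = 0.333). Per 1000 peaks of a list, the keratin windows held 0.536 and 0.505 peaks in the sgArid1a libraries, against 0.607 and 0.526 in the sgScramble libraries, and here the groups overlapped (exact two-sided permutation p = 0.667).

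**Figure D4:**
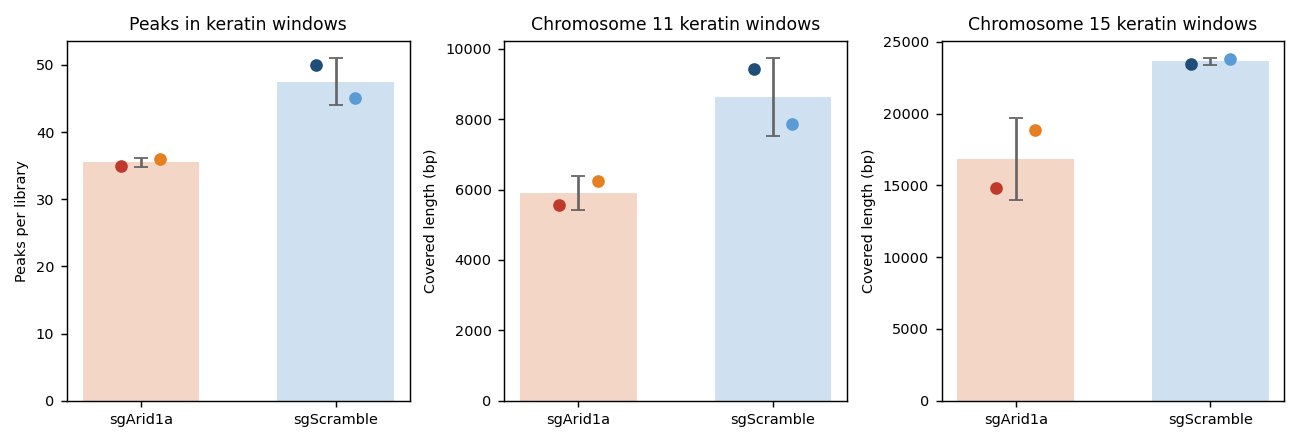
Peaks in the keratin windows (left) and bp covered by peaks in the windows of chromosomes 11 (middle) and 15 (right), with points for libraries, bars for the mean and error bars for the SD (n = 2 each). Both sgArid1a libraries lie below both sgScramble libraries in each panel: 5566 and 6238 bp against 9417 and 7857 bp on chromosome 11, and 14829 and 18872 bp against 23474 and 23808 bp on chromosome 15.

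Gene by gene, 17 of the 37 keratin genes with a region (45.9%) had less covered length in both sgArid1a libraries than in both sgScramble libraries. Of protein-coding genes with a region, 53.9% did (9569 of 17747). None of the 37 had more in both, against 3.17% of protein-coding genes. The 17 included Krt8, Krt18, Krt7, Krt80 and Krt78, and the neighbours Krt87, Krt88, Krt86 and Krt83. At Krt80 the window held 1586 and 1691 bp in sgArid1a replicates 1 and 2, against 3418 and 3179 bp in sgScramble replicates 1 and 2. At Krt86 it held 1043 and 1347 bp in the sgArid1a libraries, against 2544 and 2804 bp in the sgScramble libraries. Neighbouring windows overlap and share regions, so these genes are not independent of each other. At Krt72, Krt40, Krt23, Krt25, Krt84 and Krt81, among the 20 others, the libraries of the 2 groups overlapped.

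**Figure D5:**
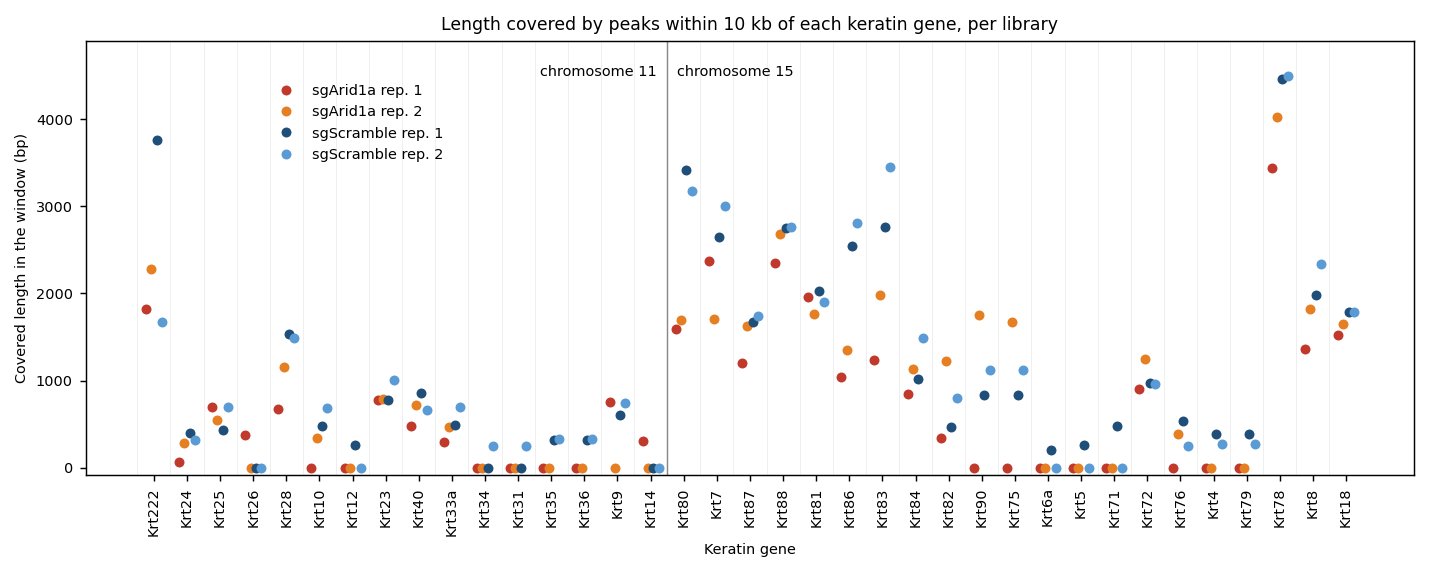
Length covered by peaks (bp) in the window of each of the 37 keratin genes with a region, in genome order, 1 point per library. Krt80, Krt86 and Krt83 show both sgArid1a points well below both sgScramble points, while those of Krt72 and Krt81 are intermixed.

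Genes that work with keratins were set beside them in the same windows. A list of 34 desmosome, plakin and other intermediate filament genes had 219 regions at 27 genes, and 116 regions (53.0%) were called in all 4 lists, the same share as over windows of protein-coding genes. Of 155 regions called in each sgScramble library, 15 (9.68%, against 11.8% in windows of protein-coding genes) were missing, at 8 genes. Of the 122 called in each sgArid1a library, 1 was in neither sgScramble list, at Dst. The share of such regions in windows of protein-coding genes was 1.33%. Dst, which encodes the plakin dystonin, also had 8 of the 15, out of its 45 regions called in each sgScramble library. Pkp1 and Pkp4, plakophilins of junctions, Perp, a desmosomal membrane protein, the neurofilament and related genes Nefh and Ina, the lamin gene Lmna and the lens filament gene Bfsp2 had 1 each. Vim, the gene of vimentin, had 2 regions, both in all 4 lists, and a promoter in a peak of every list. The desmosomal cadherin genes Dsc1, Dsc2, Dsc3, Dsg1a, Dsg3 and Dsg4 had no region, and Dsg2 had 3.

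Among 18 epithelial transcription factor and adhesion genes, 17 had a region, 46 of 85 regions (54.1%, against 53.0% in windows of protein-coding genes) were in all 4 lists and 10 of the 61 called in each sgScramble library (16.4%, against 11.8%) were missing. Trp63, the gene of the p63 factor of basal epithelia, had 3 of its 5 sgScramble regions missing, and Grhl2, a grainyhead factor of epithelia, had 3 of 11. Ehf, Grhl1, St14 and Cldn7 had 1 each. No region of this list was called only in the sgArid1a lists. Cdh1, the gene of E-cadherin, had 7 regions, all in all 4 lists, and Epcam had none.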

How the data were processed

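Titles gave each library its group and replicate number. The authors deposited 1 broad peak list per library, so replicates were not pooled. Each peak has a score, a fold (ratio) of signal over background, and a −log10 p and −log10 q, all deposited by the authors. The score was not used. STAR 2.5.3a and HOMER appear, without roles, in the submitters' processing notes. The sources used here do not give the peak caller or any Tn5 shift. Peaks overlapping by at least 1 bp were merged into regions. Covered length, peaks and percentiles by fold were computed per library. Gene positions and promoters were those of RefSeq for GRCm38.p6. Groups were compared by exact two-sided permutation tests, and keratins were set beside all genes without a test. Every keratin gene with a region is named, and those with a missing region or a peak over an end, and Krt8 and Krt18, have their values given in each library. Members, gene lists and this rule were chosen with earlier results of these data known. As a check of the code, the merging was run on copies of the real regions with slightly shifted edges and planted absences. Real peaks differ more between lists, so that check does not show how well real regions were merged. Python 3.11.15, numpy 2.4.6, pandas 2.3.3, SciPy 1.17.1 and matplotlib 3.10.9 were used. Alternatives are given at the end.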

Additional observations from a re-analysis of the deposited data

How the results depend on the processing

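The difference in covered length was negative under every alternative run: from -4370.5 bp with lists of equal length to -10903 bp with presence set at 50% of a region, and from -7168 to -11883 bp without 1 library. With the replicate number as a block it was -9525.5 bp (exact permutation p = 0.5, the smallest that 2 pairs can give), and nothing in the labels says that the numbers pair the libraries. Of the counts of missing keratin regions (8), the value was 4 with only the stronger 50% of peaks by fold (1 of the 8 among them), 5 with lists of equal length, 3 without peaks under 500 bp, 4 with a window of 2 kb, and 9 to 15 without 1 library. The share stayed above that of all regions except where peaks under 500 bp were dropped (3 of 23, against 13.7%). With lists of equal length it was 14.7% against 6.97%. At a −log10 q of at least 5 the count was also 8, but only 3 of the 8 were the same regions. The count of regions called in both sgArid1a lists and absent from the sgScramble lists (0) was 1 with lists of equal length (3.57%, against 4.37% of all regions). It was 0 to 4 without 1 library, where the share of all regions was 2.85% to 8.01%. Genes with a region (37) numbered 23 at a −log10 q of at least 5, 24 without peaks under 500 bp, 21 with a window of 2 kb and 33 to 37 without 1 library. The causes were not tested. Without regions at the ends of other genes, or with merging within 1 kb, these 3 counts were the same.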

Other observations

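In the windows of Krt80 and Krt78, many peaks had a higher −log10 p than their fold would place them at. Among all peaks of the same list within 5% of the fold, 18 of the 22 Krt78 peaks and 11 of the 19 Krt80 peaks stood above the 75th percentile of −log10 p. At the remaining keratin genes 9 of 126 did, and 4 of these 9 lay at Krt222. The medians were 90.1 at Krt78, 78.9 at Krt80 and 36.1 at the remaining genes. By the definition of this percentile the median over all peaks lies near 50. The remaining keratin peaks stood below that, so they are a low comparison for Krt78 and Krt80. The 22 and 19 peaks come from 6 and 8 regions, each counted once per list, so they are not independent. At Krt80 the regions starting at 101354116, 101362580 and 101375029 stood below the 50th percentile in each list that called them. At Krt78 the region starting at 101995276 stood at 10.3 to 50.7. The region inside Krt87 stood at 72.0 to 85.5. The windows of Krt80 and Krt78 were singled out after their values were seen.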
